A study of Homo sapiens with 6 samples.

Results

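The microRNAs (miRNAs) miR-23, miR-27 and miR-24 are made from 2 clusters of 3 hairpins each, an a cluster on chromosome 19 and a b cluster on chromosome 9. The 10 mature strands described here, of 1596 miRNAs in the deposited table, were taken by name and not by a rule on their measured values. Earlier results of these data were known when they were chosen. Small RNA of human melanoma cells was sequenced after treatment for 24 hours, in 3 libraries with RSL3 and in 3 with RSL3 combined with IFN-γ (labelled RSL3+IFN-gamma), so that both groups carried RSL3 and no untreated cells were among these libraries. RSL3 drives ferroptosis, a death by lipid peroxidation, through inhibition of the peroxidase GPX4, and IFN-γ is a cytokine of activated T cells. The sample labels name the cells as A2058, whereas the methods text of the study names A375 for the sequencing; both are established melanoma lines, and the values below hold for whichever was used. The labels give no dose, and neither does the methods text on the sequencing. Figure legends of the study state the same IFN-γ dose for both lines and a different RSL3 dose for each. The methods text states for experiments in general that they were repeated, and no source used here says whether the replicate libraries were separate cultures, so that the spread behind each p-value is that of 6 libraries and may be technical.

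A miRNA hairpin is cut into 2 strands, the 5p and the 3p arm, and usually one of them is kept in the silencing complex while the other is mostly degraded. The kept strand finds its target mRNAs mainly through its seed, bases 2 to 8 from the 5′ end. The 3p arms are the main strands of all these hairpins. MiR-24-3p is known to repress the histone H2AX and regulators of the cell cycle, and miR-27a and miR-27b the adipogenic receptor PPARG, and both clusters are known for their abundance in the endothelium.

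The a cluster holds MIR23A, MIR27A and MIR24-2 within 373 bases, and the b cluster holds MIR23B, MIR27B and MIR24-1 within 881 bases. In GRCh38.p14 (RefSeq), MIR23A lies on the minus strand of chromosome 19 from 13836587 to 13836659, MIR27A from 13836440 to 13836517 and MIR24-2 from 13836287 to 13836359. All 3 overlap an exon of the non-coding gene AC020916.1 on the same strand in GENCODE 29 (RefSeq: MIR23AHG). On the plus strand of chromosome 9, MIR23B lies from 95085208 to 95085304 and MIR27B from 95085445 to 95085541, both in an intron of C9orf3 (RefSeq: AOPEP), and MIR24-1 lies from 95086021 to 95086088, where it overlaps an exon of 1 transcript of C9orf3.

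The mature sequences (RefSeq) are shown because the copies differ so little that they limit how reads can be assigned. The seed is in capitals. The main strands are as follows:
hsa-miR-23a-3p: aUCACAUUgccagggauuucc
hsa-miR-23b-3p: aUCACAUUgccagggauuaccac
hsa-miR-27a-3p: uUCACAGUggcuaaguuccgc
hsa-miR-27b-3p: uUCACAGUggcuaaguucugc
hsa-miR-24-3p: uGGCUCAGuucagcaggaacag

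Both miR-23 main strands carry the seed UCACAUU and both miR-27 main strands the seed UCACAGU. Over the 21 bases that can be compared, miR-23a-3p and miR-23b-3p differ at a single base (U19A, the a copy first, counted from the 5′ end), and miR-27a-3p and miR-27b-3p differ at a single base as well (C19U). A read that ends before base 19 therefore fits both copies, and the sources used here do not state how the authors counted such reads. In the deposited counts the a and b copies of miR-365-3p, and those of miR-517-3p, were equal in every library. Short miR-23-3p and miR-27-3p reads counted for both copies in that way would draw the shares of the copies together, which was not tested. MiR-24-3p is the same sequence in both clusters, so its reads cannot be split between them. The 5p arms are better separated, and miR-24-1-5p, which is not among the 10 members, is added as the b partner of miR-24-2-5p:
hsa-miR-23a-5p: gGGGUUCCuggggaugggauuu
hsa-miR-23b-5p: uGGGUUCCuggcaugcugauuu
hsa-miR-27a-5p: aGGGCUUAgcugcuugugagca
hsa-miR-27b-5p: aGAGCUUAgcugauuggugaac
hsa-miR-24-2-5p: uGCCUACUgagcugaaacacag
hsa-miR-24-1-5p: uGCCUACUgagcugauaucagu

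From the 5′ end and without gaps, the copies differ at 7 of 22 bases for miR-23-5p, 8 for miR-27-5p and 6 for miR-24-5p. The 5p copies of miR-23 and of miR-24 share their seed, whereas those of miR-27 differ within it (G3A).

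Library totals were 4383940 to 6513382 reads. TMM factors, which correct the totals for the make-up of each library, were 0.861 to 0.913 for RSL3 and 0.944 to 1.33 for the combination, the highest being that of replicate 2 of the combined treatment. The members together took 2.45% to 3.22% of the reads in the RSL3 libraries, and 2.48%, 5.23% and 4.43% in replicates 1, 2 and 3 of the combined treatment. Markers of the melanocyte lineage and of melanoma were taken as a single list. Of these, miR-211-5p was at 269.9 to 388 CPM (counts scaled by library total and TMM factor) and miR-146a-5p at 85729 to 147822 CPM. MiR-204-5p was at 161 to 345 CPM and miR-514a-3p at 14.5 to 76.0 CPM, while miR-506-3p, miR-508-3p and miR-509-3p stayed below 3 CPM. Of the 4 of these 7 markers that were tested, edgeR called miR-514a-3p lower with the combination (log2 fold change −1.38, adjusted p = 0.0374), and miR-204-5p had a log2 fold change of −0.75 (adjusted p = 0.0750). The endothelial marker miR-126-3p was at 319 to 740.2 CPM. Summed over its 2 markers, the endothelial list was at 533 to 751 CPM with RSL3 and 323 to 588 CPM with the combination, and its part in the results was not tested. Summed levels with RSL3 and with the combination were 98.9 to 166 and 84.4 to 332 CPM for the 5 blood markers, and 48.7 to 104 and 44.8 to 73.3 CPM for the 5 epithelial ones. They were 244 to 1078 and 255 to 429 CPM for the 4 fibroblast markers, and 29.1 to 90.4 and 68.3 to 174 CPM for the liver marker miR-122-5p, whose log2 fold change was 1.1 (adjusted p = 0.181 from edgeR). None of the tested markers of these 5 other cell types was called, and their part in the results was likewise not tested.

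MiR-27b-3p and miR-24-3p led the members in both groups, by their means. Values are CPM in replicates 1, 2 and 3, and as mature miRNAs are of like length (21 to 23 bases) they can be set side by side without a length correction, although ligation during library preparation favours some ends over others. MiR-27b-3p was at rank 10 of all 1596 miRNAs by mean CPM, with 15377, 11050.0 and 19641 CPM with RSL3 and 9964, 15701 and 18172 CPM with the combination. MiR-24-3p (rank 16) was at 8428, 7895 and 8267 CPM and at 7218, 10449 and 10466 CPM. For each of these strands the groups overlapped. Within each library miR-27b-3p lay above miR-24-3p. Across libraries of the combined treatment their ranges met, as 9964 CPM of miR-27b-3p in replicate 1 lay below 10466 CPM of miR-24-3p in replicate 3.

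The other main strands lay close together. MiR-23a-3p was at 2249, 1939.6 and 2182 CPM with RSL3 and at 2185, 2785 and 2087 CPM with the combination. MiR-23b-3p was at 2839, 2418 and 2434 CPM and at 2389.9, 2242 and 1739 CPM, each of the latter below each of the former. MiR-27a-3p was at 2178, 1655 and 2865 CPM and at 2003, 5683 and 3879.6 CPM. The means of these 3 strands in the RSL3 group, 2124 ± 163, 2564 ± 239 and 2233 ± 607 CPM (SD, n = 3 each), did not separate by more than this spread, except that miR-23b-3p exceeded miR-23a-3p in each of the 3 libraries. With the combination the means were 2352 ± 378, 2124 ± 341 and 3855 ± 1840.1 CPM (SD, n = 3 each).

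Of the minor strands, those of the a cluster were the more abundant for miR-24 and miR-27, and the less abundant for miR-23. MiR-24-2-5p was at 805, 921 and 473 CPM with RSL3 and at 1192, 728 and 981 CPM with the combination, against 41.0 to 82.8 CPM for miR-24-1-5p over all 6 libraries. MiR-27a-5p was at 479, 686 and 509.6 CPM and at 958, 1339.8 and 797 CPM. Here each library of the combined treatment group lay above each of the RSL3 group. MiR-27b-5p was at 257, 291 and 278 CPM and at 318, 360.5 and 218 CPM, with overlap. MiR-23b-5p was at 25.1, 20.8 and 32.0 CPM and at 48.3, 50.1 and 55.2 CPM, again with no overlap. MiR-23a-5p, the rarest member, was at 10.5, 8.28 and 3.50 CPM and at 13.3, 10.3 and 11.8 CPM, from 20 to 73 reads in a library.

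**Figure D1:**
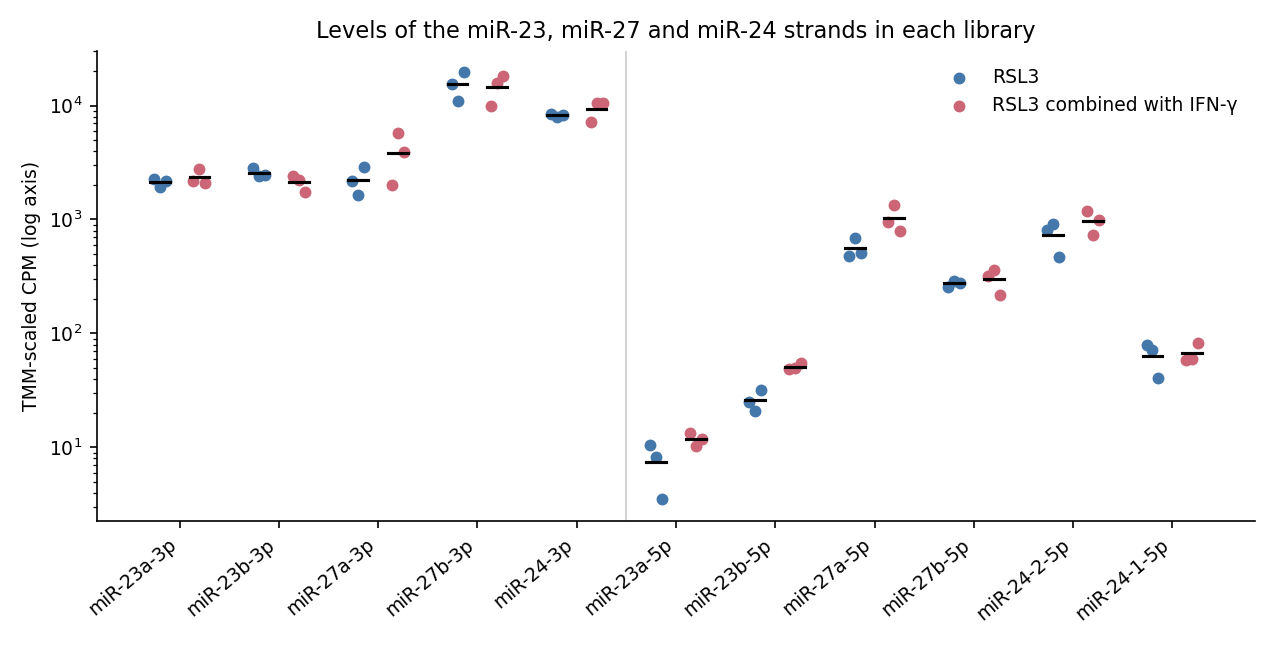
Level of each strand in each library (TMM-scaled CPM, log axis), main strands to the left of the line and minor strands to the right, with RSL3 in blue and RSL3 combined with IFN-γ in red. Points are libraries and bars are means of 3. MiR-23b-5p and miR-27a-5p are the strands whose red points all lie above the blue ones, and miR-23b-3p is the one whose red points all lie below.

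To ask whether IFN-γ altered these strands in RSL3-treated cells, the counts were tested with edgeR's quasi-likelihood test over the 758 miRNAs that passed its filter on low counts, with Benjamini-Hochberg adjustment over all 758 and a threshold of 0.05. All 10 members passed the filter. In this fit, which had no block for the replicate number, none of the 10 was called, neither higher (2.51% of all tested miRNAs were) nor lower (2.24%). The fit with that block, which did call members, is given below. At an unadjusted p under 0.05 there were 2 members, miR-23b-5p and miR-27a-5p, against 25.9% of all tested miRNAs, and DESeq2 called these same 2 and limma the first. The calls of DESeq2 on the higher side took in 6.86% of the 758 miRNAs, and those of limma 3.43%. The groups did not overlap, on the higher side, for these 2 (15% of all tested miRNAs) and, on the lower side, for miR-23b-3p (14.8%). The median log2 fold change of the members was 0.30, with 8 of 10 above 0, against −0.04 over all tested miRNAs, of which 367 were above 0.

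MiR-23b-5p came nearest to the threshold, with a mean of 26.0 ± 5.67 CPM with RSL3 and 51.2 ± 3.58 CPM with the combination (SD, n = 3 each). The log2 fold change was thus 0.98 with a standard error of 0.256, and edgeR gave an adjusted p = 0.0530. MiR-27a-5p followed, with means of 559 ± 112 and 1032 ± 279 CPM (SD, n = 3 each). Its log2 fold change was 0.89 with a standard error of 0.268, and edgeR gave an adjusted p = 0.0750. The libraries of the groups share replicate numbers, and same-numbered libraries deviated together, with correlations of 0.207 to 0.227. Those of differently numbered libraries were −0.260 to 0.019. As values were centred within each group of 3, positive and negative correlations had to occur together, and what the numbers stand for was not tested. With the replicate number as a block, edgeR called miR-23b-5p and miR-27a-5p higher, each with an adjusted p = 0.0375, and none of the members lower. In that fit 5.15% of all tested miRNAs were called higher and 5.67% lower. Without replicate 1 of the combined treatment and with no block, miR-23b-5p was called at a log2 fold change of 1.01 (adjusted p = 0.0418 from edgeR), where 5.52% of 815 miRNAs were called higher. Without replicate 2 of the combined treatment the log2 fold changes of miR-23b-5p and miR-27a-5p were 0.99 and 0.64, and without RSL3 replicate 1 they were 0.96 and 0.80, with neither called. Few miRNAs of any kind were called in these settings, 4 higher and 2 lower of 787 in the former and 0 of 810 in the latter.

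MiR-27a-3p, the main strand of the same hairpin, was higher by 0.79 on the log2 scale, with a standard error of 0.360 and an adjusted p = 0.198 by edgeR. Its value hung on single libraries. Without replicate 2 of the combined treatment the log2 fold change was 0.39 (adjusted p = 0.544), and without replicate 1 of the combined treatment it was 1.096 and was called (adjusted p = 0.0276, both from edgeR). Among the remaining members of the a cluster the log2 fold changes were 0.67 (standard error 0.403) for miR-23a-5p, 0.40 (0.297) for miR-24-2-5p and 0.15 (0.219) for miR-23a-3p. With single libraries left out they ranged from 0.30 (without RSL3 replicate 3) to 1.02 (without RSL3 replicate 1), from 0.14 (without RSL3 replicate 3) to 0.57, and from 0.00041 (without replicate 2 of the combined treatment) to 0.21, with none called. In the b cluster they were −0.27 (0.222) for miR-23b-3p, −0.07 (0.292) for miR-27b-3p and 0.12 (0.244) for miR-27b-5p, with 0.07 (0.294) for miR-24-1-5p. MiR-24-3p, which both clusters make, had a log2 fold change of 0.19 (0.226), with a range of 0.09 to 0.34 with single libraries left out. The signs of miR-23b-3p and miR-27b-3p depended on scaling, since under scaling by library totals alone, which moves the median of all tested miRNAs to 0.33, they were 0.09 and 0.34.

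**Figure D2:**
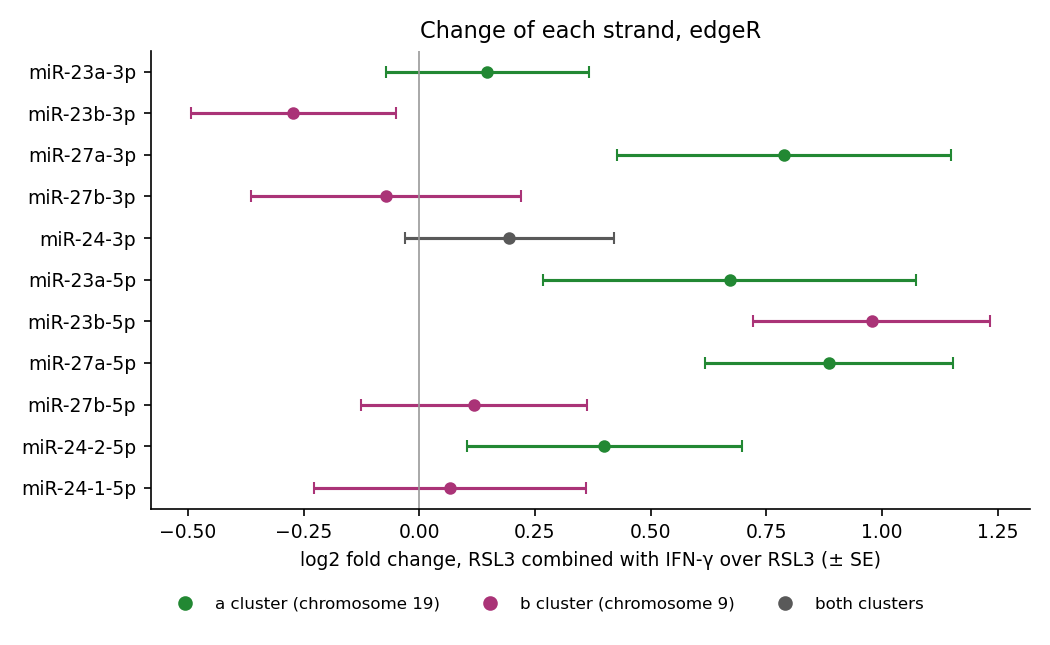
Log2 fold change of each strand, RSL3 combined with IFN-γ over RSL3, coloured by cluster. Bars are standard errors derived from the F statistic of edgeR's test (3 libraries a group). MiR-23b-5p (0.98), miR-27a-5p (0.89) and miR-27a-3p (0.79) lie farthest to the right, and miR-23b-3p (−0.27) and miR-27b-3p (−0.07) are the strands left of 0, where scaling by library totals puts both to the right (0.09 and 0.34).

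Since the clusters lie on different chromosomes and carry almost the same main strands, the a and b copies were next compared within each library, where the scaling of libraries cancels. For miR-27-3p the a copy made up 12.4%, 13.0% and 12.7% of the reads of both copies with RSL3, and 16.7%, 26.6% and 17.6% with the combination. The RSL3 libraries thus lay within less than a percentage point of each other and below each library of the combination, of which replicate 2 stood out. For miR-27-5p the a copy made up 65.1%, 70.2% and 64.7% with RSL3, and 75.1%, 78.8% and 78.5% with the combination, with no overlap. For miR-23-3p it made up 44.2%, 44.5% and 47.3%, and 47.8%, 55.4% and 54.5%, again with no overlap, although the exact 95% intervals of RSL3 replicate 3 (46.7% to 47.9%) and replicate 1 of the combination (47.1% to 48.5%) did, on counting error only.

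The minor strands of miR-23 and miR-24 showed no such separation. For miR-23-5p the a copy made up 29.4%, 28.5% and 9.85% with RSL3 and 21.6%, 17.0% and 17.6% with the combination, from 130 to 415 reads of both copies in a library. For miR-24-5p it made up 91.1%, 92.7% and 92.0%, and 95.3%, 92.5% and 92.2%, so that nearly all miR-24 minor strands carried the sequence of the a cluster. The order of the copies thus differed between the strands of one hairpin pair. The b copy was the more abundant for miR-27-3p and the a copy for miR-27-5p, in 6 of 6 libraries each.

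**Figure D3:**
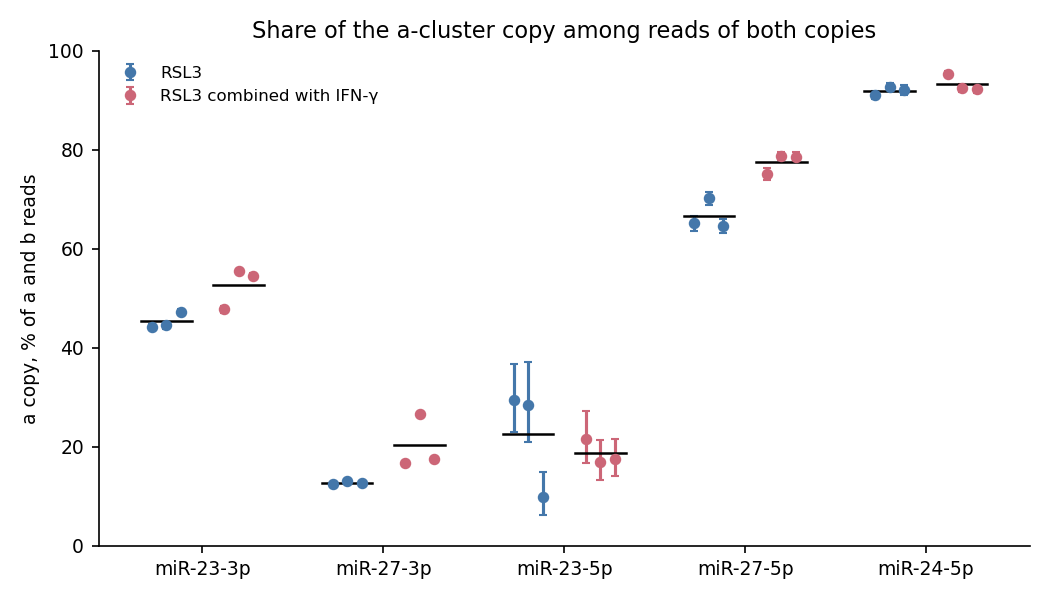
Reads of the a-cluster copy as a percentage of the reads of both copies, in each library, with exact (Clopper-Pearson) 95% intervals, which cover counting error only and are often smaller than the points. Black bars are means of 3. For miR-23-3p, miR-27-3p and miR-27-5p the points of RSL3 combined with IFN-γ lie above those of RSL3, and for miR-23-5p and miR-24-5p they overlap.

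The log2 ratio of a to b copy was tested with limma over all 57 pairs of miRNAs in the table that are named as a and b copies of one number and arm and have a mean of at least 10 reads each, with the miR-24-5p pair among them. None of the 5 pairs of these clusters was called, while 1.75% of all pairs were. At an unadjusted p under 0.05 there were 3 of the 5, among 12 of all 57, and the groups did not overlap in these 3, as in 28.1% of all pairs. The ratio of miR-27-5p was higher by 0.78 on the log2 scale with the combination (95% interval 0.41 to 1.16, adjusted p = 0.0986 from limma), that of miR-27-3p by 0.78 (0.11 to 1.44, adjusted p = 0.221) and that of miR-23-3p by 0.42 (0.05 to 0.79, adjusted p = 0.221). For miR-24-5p the difference was 0.33 (−0.33 to 0.98), with 0.07 without replicate 1 of the combined treatment, and for miR-23-5p it was −0.21 (−1.76 to 1.35), intervals that hold both no difference and differences as large as those of the other pairs. Without RSL3 replicate 2 the ratio of miR-27-5p was called, at a difference of 0.90 with an adjusted p = 0.0429 from limma, where 5.26% of the 57 pairs were called. Without replicate 2 of the combined treatment the difference for miR-27-3p was 0.51, where it had been 0.78.

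Summed over the strands that only 1 cluster makes, the a cluster was at 5722, 5211 and 6034 CPM with RSL3 and at 6351, 10546 and 7756 CPM with the combination, without overlap, a difference of mean log2 CPM of 0.51. Without replicate 2 of the combined treatment the difference was 0.31, and with library totals only it was 0.87. The b cluster was at 18577, 13852 and 22426 CPM and at 12779, 18413 and 20267 CPM, a difference of −0.09. An exact permutation test over the libraries gave p = 0.1 for the a cluster, which is the smallest p that 3 libraries against 3 allow, and p = 0.7 for the b cluster (two-sided). Of the reads of both, the a cluster took 23.5%, 27.3% and 21.2% with RSL3 and 33.2%, 36.4% and 27.7% with the combination (exact permutation p = 0.1). Near-identical main strands were also counted together. MiR-23a-3p and miR-23b-3p together had a log2 fold change of −0.06 (standard error 0.214), and miR-27a-3p and miR-27b-3p together one of 0.07 (standard error 0.300). Both estimates are small, but their standard errors leave room for changes in either direction.

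In these libraries fold changes went along with the share of G and C in the mature sequence, with a Spearman correlation of 0.469 across 679 tested miRNAs, which share their libraries and are not independent. The GC content of the a copy and the b copy was 54.5% and 45.5% for miR-27-5p, 52.4% and 47.6% for miR-27-3p, and 47.6% and 47.8% for miR-23-3p. With the GC trend removed in each library, the log2 fold change of the a copy exceeded that of the b copy by 0.49 for miR-27-5p, where it had been 0.77, by 0.69 for miR-27-3p, where it had been 0.86, and by 0.43 for miR-23-3p, where it had been 0.42. For miR-24-5p it exceeded it by 0.19, where it had been 0.33, and for miR-23-5p the difference of a and b went the other way, at −0.55 where it had been −0.31. MiR-23b-5p kept a log2 fold change of 0.98 and miR-27a-5p one of 0.75, and with the block added neither was called (adjusted p = 0.0754 and 0.0884 from edgeR). That setting called 9 of 679 miRNAs higher and 3 lower.

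The arms of one hairpin were compared in the same way. The hairpins are shown with their mature arms in capitals, the 5p arm first, as the pairs differ in the 5p arm more than in the 3p arm:
MIR23A: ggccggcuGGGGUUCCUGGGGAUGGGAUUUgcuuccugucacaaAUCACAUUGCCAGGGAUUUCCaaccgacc
MIR23B: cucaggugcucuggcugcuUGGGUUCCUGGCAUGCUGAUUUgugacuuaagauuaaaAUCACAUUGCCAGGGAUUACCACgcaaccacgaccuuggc
MIR27A: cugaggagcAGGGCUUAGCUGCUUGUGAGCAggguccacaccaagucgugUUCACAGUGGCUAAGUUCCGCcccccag
MIR27B: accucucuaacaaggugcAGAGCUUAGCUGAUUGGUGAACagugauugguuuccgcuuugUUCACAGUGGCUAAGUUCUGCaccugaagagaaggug

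Of the reads of the miR-23b hairpin, the 5p arm made up 0.875%, 0.853% and 1.30% with RSL3 and 1.98%, 2.18% and 3.08% with the combination, without overlap. For miR-23a it made up 0.463%, 0.425% and 0.160%, and 0.605%, 0.367% and 0.562%, with overlap. The miR-27a hairpin kept far more of its 5p arm, at 18.0%, 29.3% and 15.1% with RSL3 and 32.3%, 19.1% and 17.0% with the combination, than the miR-27b hairpin, at 1.64%, 2.57% and 1.40% and at 3.09%, 2.24% and 1.19%. MiR-27a and miR-27b thus differed by more than the spread between libraries in either group, and neither separated the groups. The 5p arms of both miR-24 hairpins together made up 5.85% to 11.2% of miR-24 reads with RSL3 and 7.01% to 14.8% with the combination.

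**Figure D4:**
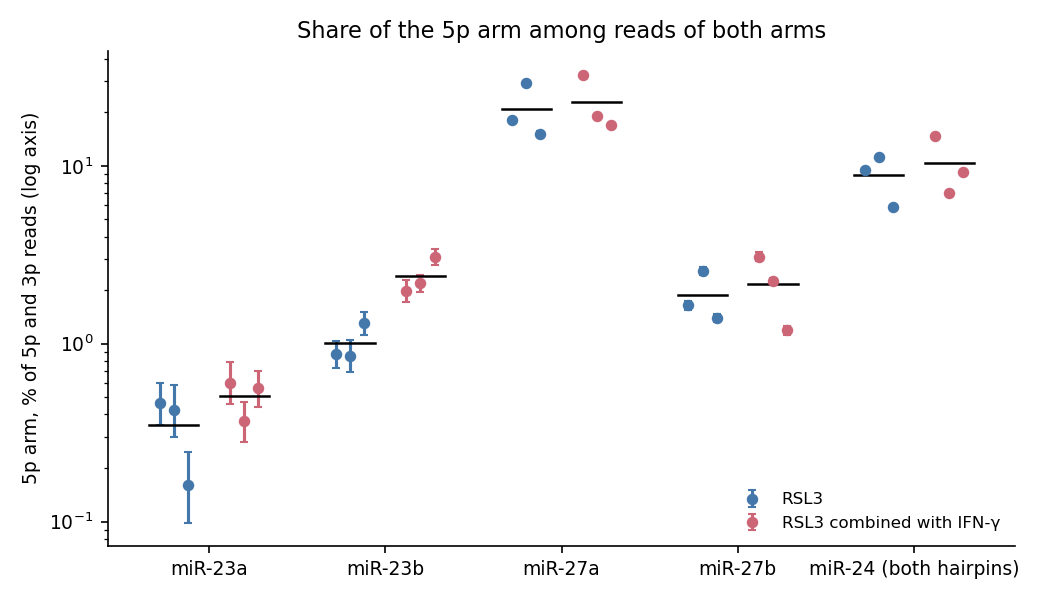
Reads of the 5p arm as a percentage of the reads of both arms of a hairpin (log axis), in each library, with exact (Clopper-Pearson) 95% intervals for counting error. Black bars are means of 3. The miR-23b points of RSL3 combined with IFN-γ (1.98% to 3.08%) lie above those of RSL3 (0.853% to 1.30%), and those of the other hairpins overlap.

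The log2 ratio of 3p to 5p reads was tested with limma over the 181 hairpins whose arms both averaged 10 reads or more. None of the 4 hairpins with both arms of their own was called, nor was any of the 181 (0.00%), with 35 of the 181 and 1 of the 4 at an unadjusted p under 0.05. The ratio of miR-23b was lower with the combination by a log2 difference of −1.28 (95% interval −2.12 to −0.44, adjusted p = 0.151 from limma), and its groups did not overlap, as in 22.7% of the 181 hairpins. For miR-23a the difference was −0.65 (−1.76 to 0.45), and −0.17 without RSL3 replicate 3. It was −0.17 (−1.26 to 0.92) for miR-27a and −0.17 (−1.22 to 0.89) for miR-27b. These last differences turned their sign without RSL3 replicate 3 or without replicate 1 of the combined treatment.

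Relatives of the members were sought by seed among the 1425 miRNAs of the table with a RefSeq mature sequence. Apart from copies already described, the miR-23 seed was carried by miR-23c, from chromosome X, and the miR-27 seed by miR-9985. The sequence of miR-9985 (RefSeq) is shown because its 5′ bases are those of the miR-27 main strands as far as ggcuaag. Only reads that end there or earlier cannot be told apart:
hsa-miR-9985: uUCACAGUggcuaagcuau

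MiR-9985 went from a mean of 11.6 ± 3.01 to 18.3 ± 6.62 CPM (SD, n = 3 each). Its log2 fold change was 0.65 with a standard error of 0.356, and miR-23c, at 6 to 25 reads a library, had one of 0.46 (standard error 0.525). MiR-3074, whose hairpin lies opposite MIR24-1 on the minus strand of chromosome 9, has a 5p arm complementary to miR-24-3p over 20 bases. MiR-3074-5p had a log2 fold change of 0.24 (standard error 0.302) at 44 to 82 reads a library, and miR-3074-3p did not pass the filter, at 19 reads in all. With miR-24-1-5p these are 5 relatives, of which 4 were tested and none was called, by edgeR with or without the replicate block (0 at an unadjusted p under 0.05).

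The miRNAs whose pattern over the 6 libraries was most like that of miR-27a-3p, by the root-mean-square difference of mean-centred log2 CPM among 197 miRNAs of at least 100 CPM, were miR-615-3p (0.191), miR-451a (0.232), which is also a blood marker, and miR-873-5p (0.279). Those most like miR-27b-3p were miR-30e-3p (0.139), miR-339-5p (0.162) and miR-128-3p (0.185). None of these 6 was called by edgeR, with log2 fold changes of 0.52, 0.70 and 0.67 for the former and −0.05, 0.13 and 0.06 for the latter. As they were picked for a like pattern over these same libraries, fold changes like those of miR-27a-3p and miR-27b-3p follow from the choice.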

How the data were processed

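Small RNA libraries of melanoma cells treated with RSL3 (n = 3) or with RSL3 combined with IFN-γ (n = 3) were grouped by their labels. Sequencing was on an Illumina HiSeq instrument by the methods text. Tools named in the processing notes of the submitters are Bowtie 1.1.1, bcl2fastq and edgeR, with the build GRCh38. The sources used here state neither the miRBase release nor how reads with several matches were treated. The deposited table holds raw read counts per mature miRNA, which were used here. It also holds a normalized signal, which the authors made by dividing the counts by a total of each library, and the authors' log2 fold change, linear fold change and p-value, none of which were used. No column of per-sample values was of another sample.

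The two-sided quasi-likelihood test of edgeR 4.0.16 with TMM factors (R 4.3.3) was applied to the counts after edgeR's filter (minimum count 10, minimum total 15), which kept 758 of 1596 miRNAs. Ratios of copies and of arms are log2 of reads plus 0.5, tested with limma 3.58.1 where both had a mean of at least 10 reads. P-values were adjusted by Benjamini-Hochberg over all features tested. Standard errors given with edgeR's log2 fold changes are the absolute log2 fold change divided by the square root of the test's F statistic. Alternatives used DESeq2 1.42.0, limma on log2(CPM + 5), other scalings, no filter, a GC correction over the 679 tested miRNAs with a RefSeq sequence, single libraries left out and a replicate block. The code was tested on simulated data. Intervals of shares cover counting error only. Same-numbered libraries deviated together across miRNAs (correlations of 0.227, 0.217 and 0.207), each above the 0.1 taken as pairing, although no source says what the numbers stand for. The main fits of counts and ratios took no account of these numbers, and the fits with a replicate block are given as alternatives. The members, the relatives and marker lists, and the rule for miRNAs of like pattern (root-mean-square difference, at least 100 CPM) were chosen with earlier results of these data known.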

Additional observations from a re-analysis of the deposited data

How the results depend on the processing

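Of the 10 members, none was called lower under any of 15 alternatives, nor, with near-identical copies summed, was any of the 6 others or the sums of the 4 main strands of miR-23 and miR-27. The number called higher was 2 (miR-23b-5p and miR-27a-5p) with library totals only, without a filter on low counts, with DESeq2 and with the replicate block, and 1 (miR-23b-5p) with RLE size factors and with limma on log2(CPM + 5). Over all miRNAs these settings called 60, 50, 52, 39, 28 and 26 higher, in this order, against 19, so that more was called in general, and 11, 56, 43, 43, 18 and 25 lower against 17. It was 0 with upper-quartile factors, with the GC trend removed, with and without the block, and with near-identical copies summed. Over all miRNAs, upper-quartile factors called 15 of 758 higher and 24 lower. The GC correction called 9 of 679 higher and 4 lower, or 9 and 3 with the block, and summed copies 23 of 756 higher and 17 lower. With single libraries left out the number of members called higher was 0 to 2, where 0 to 45 miRNAs were called higher and 0 to 50 lower. Log2 fold changes of miR-23b-5p and miR-27a-5p stayed positive throughout. Signs turned for strands near 0, with library totals only for miR-23b-3p (0.094) and miR-27b-3p (0.34), with the GC trend removed for miR-27b-3p (0.0068) and with upper-quartile factors for miR-24-1-5p (−0.056). With single libraries left out the ranges that hold both signs were −0.28 to 0.13 for miR-27b-3p, −0.046 to 0.29 for miR-27b-5p, −0.20 to 0.25 for miR-24-1-5p, −0.53 to 0.20 and −0.56 to 0.15 for the arm ratios of miR-27a and miR-27b, and −0.83 to 0.12 for the copy ratio of miR-23-5p. The number of copy pairs called was 0 to 1 with single libraries left out, the call being miR-27-5p, and 0 with 5 reads added, a minimum of 50 reads or the replicate block. It was also 0 with identical copies left out of the fit, an alternative chosen after seeing the data, which left 52 pairs and adjusted p-values of 0.120 for miR-27-5p, 0.162 for miR-27-3p and 0.250 for miR-23-3p from limma. Of all pairs, 1 of 57 was called with 5 reads added, 1 of 45 with the minimum of 50 reads, and 0 with the block or with identical copies left out. No arm ratio of these hairpins was called under any alternative. Among all hairpins, 5 of 181 were called with 5 reads added and 4 of 103 with a minimum of 50 reads. With the block or with single libraries left out, 0 of all hairpins were called. The summed a cluster strands kept a positive difference (0.31 to 0.67 with single libraries left out), while that of the b cluster was 0.27 with library totals only and −0.29 to 0.10 with single libraries left out. The cause of these shifts was not tested. MiR-23a-5p rests on 20 to 73 reads in a library.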
